A study of Mus musculus with 8 samples.

Results

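Immediate early genes are switched on within minutes of a stimulus, without new protein synthesis. The 10 members described here were taken by symbol from the 54091 gene rows of the deposited table: Fos, Fosb, Jun, Junb, Jund, Egr1, Atf3, Ier2, Zfp36 and Myc. All were found as rows. Of these, 8 reached the minimum for testing, a mean of 10 normalized counts per library, as did 13141 genes in all. Fosb was below that level and Jund was listed at 0.

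RNA-seq measured white quadriceps muscle of 8 male mice, 11 to 14 weeks old, that had been fasted overnight for 14 h. The 4 floxed controls (numbered 1 to 4) were Loxp/Loxp, and the 4 Acot2 muscle knockouts (numbered 5 to 8) carried CKM Cre, named for muscle creatine kinase, a gene of striated muscle, and lacked Acot2 in muscle. Acot2 encodes a mitochondrial acyl-CoA thioesterase, and the question of the series was its part in fatty acid oxidation in glycolytic muscle. Mice with Cre and no floxed allele were not analysed here, so Cre and the loss of Acot2 cannot be told apart. All values are the authors' normalized counts, or log2 of that count plus 1.

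Fos and Jun proteins dimerize into the transcription factor AP-1, with Fosb, Junb and Jund as alternative subunits. Egr1 is a zinc finger factor, Atf3 a stress-induced leucine zipper factor, Myc a factor of growth and metabolism, Ier2 a small nuclear protein, and Zfp36 (tristetraprolin) binds AU-rich elements of short-lived mRNAs and speeds their decay. In muscle such genes are known to respond to contraction, stretch, injury and handling.

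Reads on genes ranged from 28659632 to 40977866 per library. The targeted gene Acot2 was at 2406 ± 1099 normalized counts in controls and at 467 ± 130.1 in knockouts (mean ± SD, n = 4 each). Its groups did not overlap (exact permutation p = 0.0286, the smallest that 70 splits allow), and its limma adjusted p was 0.087. Myh4, the myosin of fast glycolytic fibres, had between 1397870 and 2917700 normalized counts and Myh7, that of slow fibres, between 12.2 and 303. Transcripts of other cells were present in this bulk tissue, where fewer cells of a type and less RNA per cell cannot be told apart. The summed macrophage markers ranged from 1543 to 2972 normalized counts in controls and from 2695 to 4819 in knockouts, and the summed endothelial markers from 8312 to 9686 and from 9466 to 11398. All 10 macrophage and all 10 endothelial markers were detected. Neutrophil markers summed to between 1.07 and 15.7 in controls and between 6.31 and 79.5 in knockouts, with Mpo, Elane and Camp at 0 in every library.

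The stretches before the starts of Fos, Junb and Jun are shown because they hold part of the control regions of the AP-1 subunits measured here. They hold the 250 bases before the RefSeq start (GRCm38.p6), 5′ to 3′ on the gene's strand. Capitals mark TGACG, the core of the cyclic AMP response element, and TATAAA. Fos lies at chr12:85473640-85473889 (plus strand), Junb at chr8:84978749-84978998 (minus) and Jun at chr4:95052223-95052472 (minus).
Fos: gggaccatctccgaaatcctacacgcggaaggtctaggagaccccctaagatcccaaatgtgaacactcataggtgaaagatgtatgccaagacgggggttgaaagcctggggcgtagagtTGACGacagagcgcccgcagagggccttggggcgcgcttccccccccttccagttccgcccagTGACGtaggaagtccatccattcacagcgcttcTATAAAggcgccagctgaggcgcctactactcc
Junb: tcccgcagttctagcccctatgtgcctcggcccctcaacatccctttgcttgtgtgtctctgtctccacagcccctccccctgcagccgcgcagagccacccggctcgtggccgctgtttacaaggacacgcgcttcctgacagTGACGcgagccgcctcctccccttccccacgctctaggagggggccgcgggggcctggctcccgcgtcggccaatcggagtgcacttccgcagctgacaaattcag
Jun: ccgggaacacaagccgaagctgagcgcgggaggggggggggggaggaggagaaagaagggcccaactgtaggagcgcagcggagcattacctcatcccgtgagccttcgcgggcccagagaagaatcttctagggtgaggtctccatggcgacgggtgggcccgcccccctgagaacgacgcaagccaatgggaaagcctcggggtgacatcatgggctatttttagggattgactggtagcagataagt
Counted back from the start, Fos holds TGACG at -129 to -125 and at -66 to -62 and TATAAA at -33 to -28. Junb holds TGACG at -106 to -102, and the Jun stretch holds no match to any motif searched. Of the members, 7 had such a window (Fos, Fosb, Jun, Junb, Jund, Atf3 and Zfp36), and 4 of these held TGACG on either strand (Fos, Fosb, Junb and Atf3), against 17.8% of all 32851 windows. The windows of Fosb, Atf3 and Zfp36 overlap an annotated exon of the same gene, so matches in them need not lie outside transcribed sequence. The CArG box, the site of serum response factor, was found in Zfp36 as CCATAAAAGG, at -58 to -49, and in 1.47% of all windows. The Egr site GCGNGGGCG was found in Fosb and Zfp36 (4.70% of all windows), TATAAA in Fos (12.4%), and TGACGTCA and the AP-1 site TGANTCA in none of the 7 (1.55% and 6.75% of all). TGACG lies within TGACGTCA, both strands were searched, and a match is only a match of letters. Sites farther than 250 bases from the start and other spellings of a site were not searched. A motif not found here may therefore still be present in these genes.

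The members were expressed at very different levels in resting fasted muscle. Compared per kilobase of annotated exon, Jun was the highest, with 914 ± 107.7 normalized counts per kb (SD, n = 8), above Junb with 433 ± 98.7 in 8 of 8 mice. Atf3 (259 ± 105.8), Zfp36 (251 ± 75.8) and Fos (235 ± 96.2) followed at levels that overlapped. The annotated exons of Zfp36 together cover its whole gene, 3470 bases. Its level per kb, its place in this order and the tests against its neighbours below therefore depend on that annotation. The levels of the other members depend on their annotated lengths too. A length divides the values of all mice alike, so the p-values below do not measure its uncertainty. Myc had 91.0 ± 34.9, Ier2 69.6 ± 15.7 and Egr1 22.9 ± 11.7 normalized counts per kb.

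Neighbours in this order were compared in an exact sign-flip permutation test over the 8 mice (smallest possible p 0.00781, adjusted over 7 neighbouring pairs). The order came from the same 8 mice, so the pairs and their direction were not fixed beforehand. Jun lay above Junb, Fos above Myc and Ier2 above Egr1, each in 8 of 8 mice with permutation p = 0.00781 and adjusted p = 0.0182. Junb exceeded Atf3 in 7 of 8 mice (exact permutation p = 0.0391, adjusted p = 0.0684). The neighbours Atf3 and Zfp36, Zfp36 and Fos, and Myc and Ier2 were not separated beyond their spread, with adjusted p of 1, 0.802 and 0.197 in the same permutation test.

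Fosb and Jund, the other members named above as AP-1 subunits, had almost no counted reads. Fosb had between 0 and 8 reads per library, a mean of 3.37 normalized counts, and was not tested. Jund was listed at 0 in all 8 libraries. In GENCODE annotation of GRCm38, Jund (chromosome 8, 70698949 to 70700616, plus strand) shares 55.1% of its length with the antisense gene Gm11175, which itself had between 0 and 2 reads, and the rule for reads that touch both is not given in the sources used here. No statement on Jund expression can be made from these values.

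No member was called as different between genotypes after adjustment. With limma, adjusted over all tested genes, 0 of 8 members passed 0.05, as did 0 of 13141 genes (0%). The targeted gene Acot2 did not pass either (limma adjusted p = 0.087), so the lack of calls does not show that the members were unchanged. At an unadjusted p under 0.05 there was 1 member, Jun, against 810 genes (6.16%). With voom weights on whole reads the counts were 0 members and 0 genes adjusted, and 1 member and 756 genes unadjusted. In 0 of 8 members the groups were separate, against 2.75% of genes (1.13% with every knockout above every control and 1.62% with every knockout below). Of the members 5 were lower in the knockout and 3 higher, with a median difference of -0.17 on the log2 scale, where 49.4% of all genes were lower and the median was 0.0031.

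**Figure D1:**
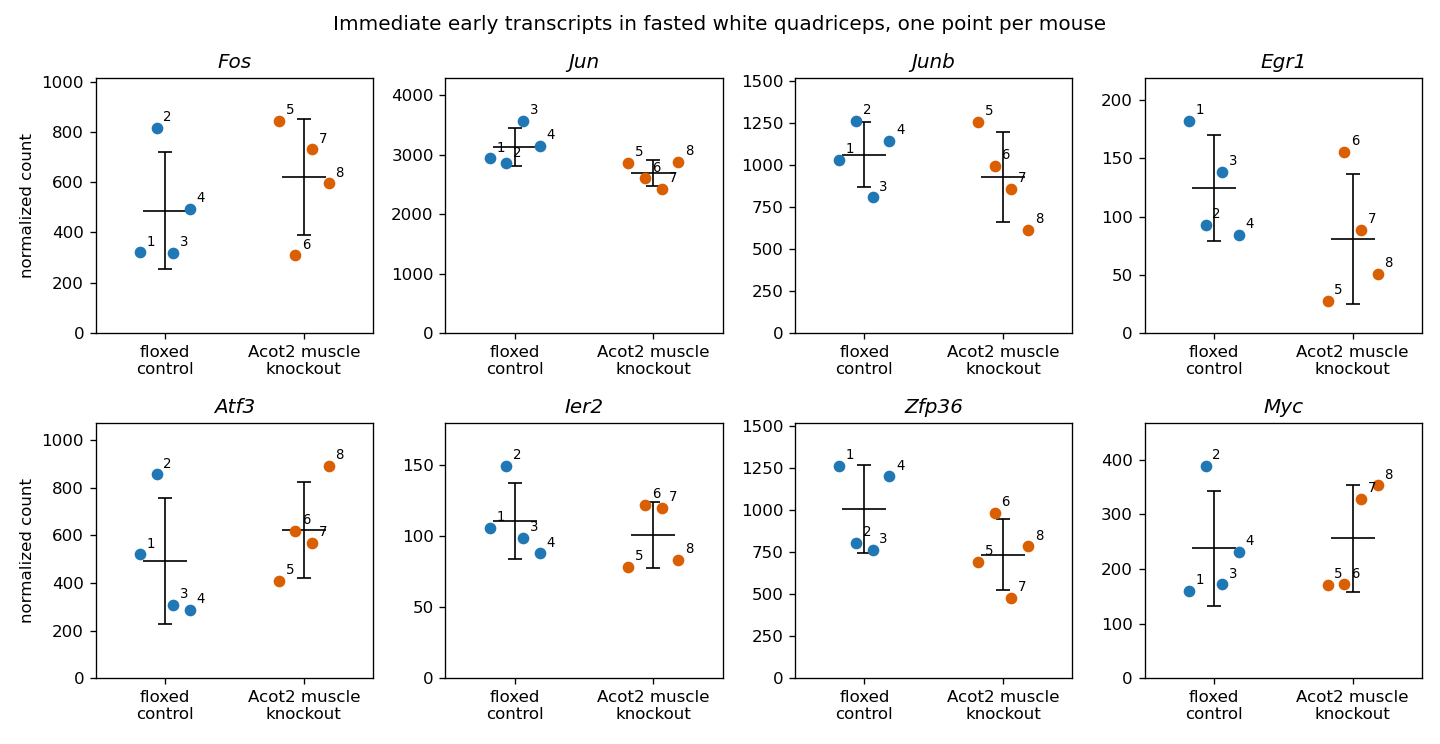
Normalized counts of the 8 tested members (vertical axes, each from 0) in 4 floxed control mice (blue) and 4 Acot2 muscle knockout mice (orange), 1 point per mouse with its number. Horizontal bars are means and error bars are SD; the points of both groups overlap in every panel, and the mouse that is highest changes from gene to gene.

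Fos, the classic inducible AP-1 subunit (chromosome 12, 85473890 to 85477273, plus strand), varied 2.73-fold between mice. Its normalized counts were 321, 815, 319 and 493 in controls 1 to 4 and 844, 309, 729.9 and 595 in knockouts 5 to 8. The lowest mice (controls 1 and 3, knockout 6) and the highest (control 2, knockout 5) came from both groups, so the groups overlapped almost fully. The difference was 0.37 (SE 0.344, 95% interval -0.39 to 1.12) on the log2 scale, with a limma adjusted p of 0.83 and an exact permutation p of 0.429. With 1 mouse left out it ranged from 0.19 without knockout 5 to 0.67 without knockout 6, and it also moved by over 1.5 times without control 1 (0.20), control 2 (0.65) or control 3 (0.20).

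Jun (chromosome 4, 95049034 to 95052222, minus strand) was the steadiest member. It had 2941, 2858, 3571 and 3153 normalized counts in controls 1 to 4 and 2863, 2607, 2429 and 2885 in knockouts 5 to 8. Knockouts 5 and 8 lay just above control 2, and the other 2 knockouts lay below every control. The difference was -0.21 (SE 0.0936, 95% interval -0.42 to -0.0077), with an unadjusted limma p of 0.0433 and an adjusted p of 0.746, and the exact permutation p was 0.0857, where the smallest possible is 0.0286. Other measures were uneven between the same libraries: titin took 11.8 to 14.9% of reads in controls, 13.9% in knockout 5 and 8.34 to 9.22% in knockouts 6 to 8. Jun and the titin share had r = 0.641 and rho = 0.714 (exact permutation p = 0.0816 and 0.0576, adjusted p = 0.865 and 0.666 over 96 relations), with r = 0.182 without knockouts 6 and 7. Jun and summed macrophage markers had r = -0.428 and rho = -0.81 (exact permutation p = 0.276 and 0.0218, adjusted p = 0.917 and 0.666), with r = -0.764 without control 1 and knockout 6. Their part in the Jun difference was not tested. The antisense gene Junos covers 21.6% of Jun, and the strand setting of the counting is not given.

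Junb (chromosome 8, 84974484 to 84978718, minus strand) had 1031, 1261, 806 and 1144 normalized counts in controls 1 to 4 and 1254, 995, 858 and 614 in knockouts 5 to 8. Control 2 and knockout 5 were about equally high and knockout 8 was the lowest. The difference was -0.22 (SE 0.202, limma adjusted p = 0.828). It was -0.033 without knockout 8, -0.13 without control 2, -0.34 without control 3 and -0.38 without knockout 5. Across the 8 libraries Junb and reads on genes had a Pearson r of 0.883 (exact permutation p = 0.00461, adjusted p = 0.443 over 96 relations). The Spearman rho was 0.905 (exact permutation p = 0.00456, adjusted p = 0.219). By r this was the smallest p of the 96, and it did not pass after adjustment. Without controls 2 and 4, the 2 deepest libraries, r was 0.885. The unadjusted permutation p was 0.0514 without control 4 and knockout 5 (r = 0.859). It was 0.0736 in the 6 mice whose labels number them 3204 to 3210 (r = 0.818). Fewer mice give a larger p at the same r. The part of depth in the Junb values was not tested. The protein-coding gene Prdx2 on the opposite strand covers 8.29% of Junb and had between 1459 and 2135 normalized counts. Its part in the Junb values was not tested either.

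Egr1 was the most variable member, with a 6.52-fold range. Its normalized counts were 182, 93.1, 139 and 84.4 in controls 1 to 4 and 27.9, 156, 88.4 and 50.8 in knockouts 5 to 8. Knockouts 5 and 8 lay below every control, while knockout 6 lay above 3 of the 4. The difference was -0.82 (SE 0.453, 95% interval -1.82 to 0.18, limma adjusted p = 0.748), and it was -0.41 without knockout 5. Zfp36 (chromosome 7, 28376784 to 28380253, minus strand) also had a lower knockout mean, with 1262, 804, 761 and 1199 normalized counts in controls 1 to 4 and 692, 984, 477 and 784 in knockouts 5 to 8. Controls 1 and 4 were above every knockout and the other 2 controls were not. The Zfp36 difference was -0.47 (SE 0.226, 95% interval -0.96 to 0.032, limma adjusted p = 0.746), and it was -0.27 without knockout 7. Zfp36 and summed endothelial markers had r = -0.654 and rho = -0.905 (exact permutation p = 0.0797 and 0.00456, adjusted p = 0.865 and 0.219 over 96 relations), with r = -0.668 without control 1 and knockout 5, and the part of these cells in the Zfp36 values was not tested. The antisense gene Gm44710 covers 36.7% of Zfp36 and had at most 37.3 normalized counts.

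Atf3 (chromosome 1, 191170296 to 191218039, minus strand) had 519.95, 856, 307 and 288 normalized counts in controls 1 to 4 and 410.1, 618, 569 and 892 in knockouts 5 to 8. Control 2 and knockout 8 stood at the top and controls 3 and 4 at the bottom. The Atf3 difference was 0.43 (SE 0.331, limma adjusted p = 0.785). It was 0.74 without control 2 and 0.25, 0.22 and 0.23 without control 3, control 4 and knockout 8. Atf3 and the titin share had r = -0.65 and rho = -0.714 (exact permutation p = 0.0885 and 0.0576, adjusted p = 0.865 and 0.666), with r = -0.769 without knockouts 6 and 7. Atf3 and summed mural cell markers had r = 0.692 and rho = 0.762 (exact permutation p = 0.0689 and 0.0368, adjusted p = 0.865 and 0.666), with r = 0.874 without knockouts 5 and 8. Their part in the Atf3 values was not tested.

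Myc (chromosome 15, 61985391 to 61990374, plus strand) had 159.7, 389, 172 and 232 normalized counts in controls 1 to 4 and 170.4, 172, 329 and 353 in knockouts 5 to 8. Control 2 and knockouts 7 and 8 were high, and controls 1 and 3 and knockouts 5 and 6 were low. The Myc difference was 0.11 (SE 0.318, limma adjusted p = 0.941) and changed sign with the mouse left out, from -0.068 without knockout 8 to 0.38 without control 2. Ier2 (chromosome 8, 84661331 to 84662852, minus strand) had 106, 149.7, 99.0 and 88.0 normalized counts in controls 1 to 4 and 78.4, 122, 120.1 and 83.5 in knockouts 5 to 8. Control 2 was the highest here too, and without it the Ier2 difference of -0.13 (SE 0.218, limma adjusted p = 0.887) became 0.023.

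The single unadjusted call rested on which mice were used. The number of members at an unadjusted p under 0.05 was 0 without control 4, without knockout 7, without both control 4 and knockout 5, and after scaling to equal totals or to equal upper quartiles. It was 3 without control 2 and 3 without knockout 6. Over all genes the count of 810 became 518, 367, 2200, 422 and 456 without control 1, control 4, knockout 5, knockout 6 and knockout 8. The smallest adjusted p of any member over the 17 alternatives was 0.247.

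Most members varied more between mice than genes of their level usually do. For each gene the SD of its log2 values within genotype was set beside the SD that the limma trend gives at the same level. The ratio was above the 95th percentile of all tested genes, as it is by construction for 5.01% of them, in 6 of 8 members. These were Fos (SD 0.64, ratio 3.82), Atf3 (0.61, 3.67), Egr1 (0.82, 2.79), Myc (0.58, 2.76), Zfp36 (0.41, 2.70) and Junb (0.36, 2.46). Ier2 (SD 0.33, ratio 1.19) and Jun (0.13, 0.98) lay near the trend. The median ratio was 2.73 over the members and 1.00 over all tested genes, and the count of 6 stayed at 5 or 6 under all 16 alternatives run for it.

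**Figure D2:**
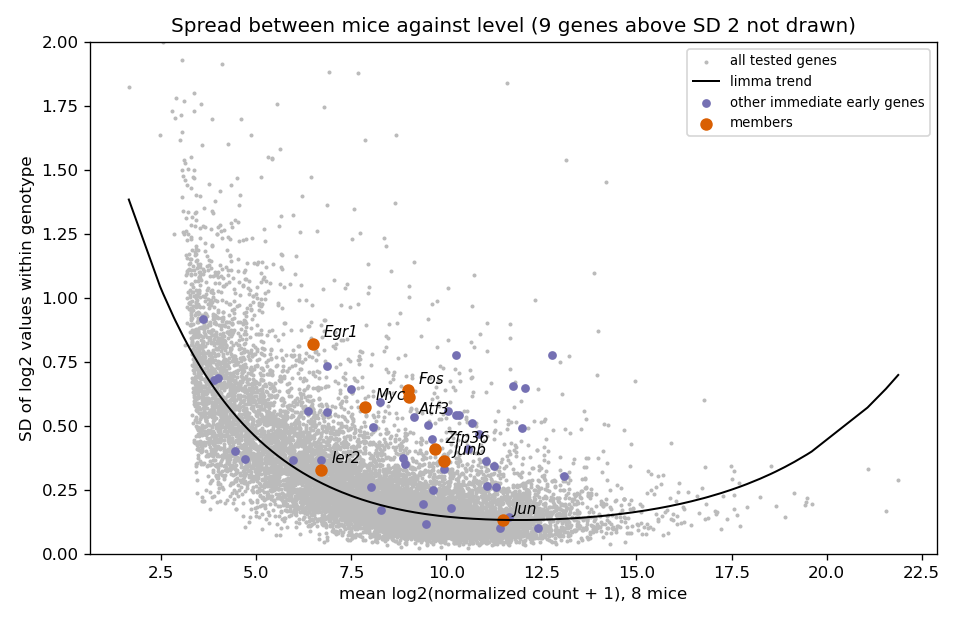
SD of log2 values within genotype (vertical axis) against the mean log2 value over 8 mice (horizontal axis) for all tested genes (grey), the limma trend (line), the 44 other immediate early genes (purple) and the 8 members (orange). Fos, Atf3, Egr1 and Myc lie well above the line and Jun lies on it; 9 genes with an SD above 2 are outside the drawn range.

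The members did not vary together as 1 block. Over the 28 pairs of tested members the median Pearson r of log2 values across the 8 mice was -0.052, with 12 pairs above 0 and 16 below. The median over all pairs of tested genes was -0.001, and the median absolute r was 0.328 for member pairs and 0.329 for all pairs. An absolute r of at least 0.5 was reached by 6 member pairs (21.4%), against 28.2% of all pairs. After adjustment over the 28 pairs 0 passed 0.05 in the exact permutation test, and 1 had an unadjusted p under 0.05.

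**Figure D3:**
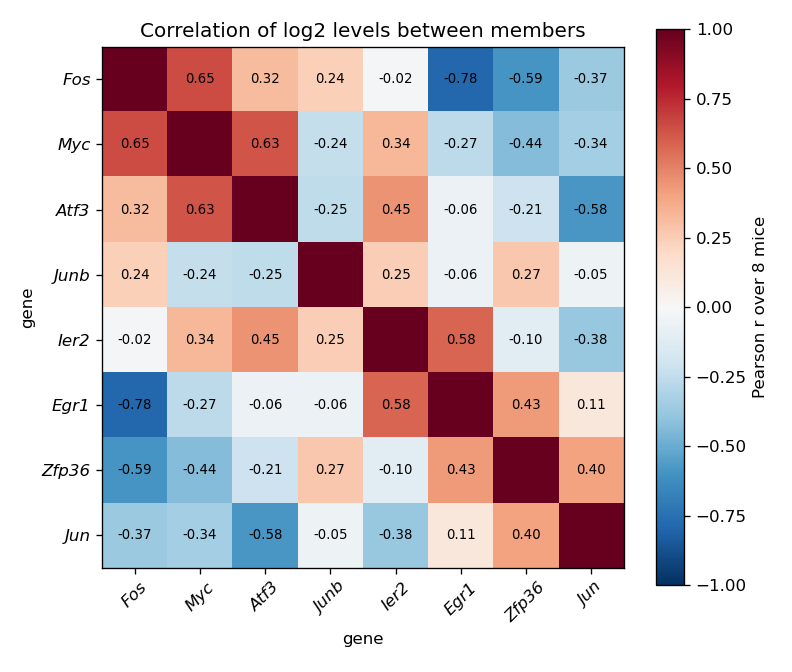
Pearson r of log2 levels over 8 mice for each pair of the 8 tested members (both axes list the genes; red is positive and blue negative). The values run from -0.78 for Fos and Egr1 to 0.65 for Fos and Myc, with no block of all members on 1 side.

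The strongest relation ran in opposite directions. Fos and Egr1 had r = -0.78 and rho = -0.71 (exact permutation p = 0.0162 and 0.0576, adjusted p = 0.453 and 0.851). The 3 mice with the lowest Fos, controls 1 and 3 and knockout 6, had the highest Egr1, and knockout 5 had the highest Fos with the lowest Egr1. Without control 3 and knockout 6, the mice farthest from the median of Fos, r was -0.70. It was -0.76 after centring on each genotype and -0.78 in the 6 mice numbered 3204 to 3210. Without control 1, knockout 5 or knockout 6, r was -0.729, -0.743 and -0.745 (unadjusted permutation p = 0.0585, 0.0577 and 0.0518). Without both control 4 and knockout 5, r was -0.753 (unadjusted permutation p = 0.0972). Fewer mice give a larger p at the same r. Summed endothelial markers moved against Egr1 (r = -0.75, exact permutation p = 0.0353, adjusted p = 0.865 over 96 relations), a relation that rested on control 1 and knockout 5 (r = 0.020 without them). Their part in the Egr1 values was not tested.

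Fos and Zfp36 had r = -0.59 and rho = -0.50 (exact permutation p = 0.128 and 0.216, adjusted p = 0.603 and 0.851), and r was -0.77 without control 3 and knockout 6. Fos and Myc had r = 0.65 and rho = 0.33 (exact permutation p = 0.0831 and 0.428, adjusted p = 0.603 and 0.856), and r was 0.49 without the same 2 mice. With 1 mouse left out, r of Fos and Myc ranged from 0.548 to 0.971. The highest value was that without knockout 5, which had the highest Fos and low Myc. Atf3 and Myc had r = 0.63 and rho = 0.60 (exact permutation p = 0.109 and 0.132, adjusted p = 0.603 and 0.851), with r = 0.78 without controls 3 and 4.

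The AP-1 partners did not track each other. Fos and Jun had r = -0.37 and Fos and Junb r = 0.24 (exact permutation p = 0.372 and 0.573, adjusted p = 0.767 for both, with rho of -0.33 and 0.48 and rho permutation p of 0.428 and 0.243). Jun and Atf3 had r = -0.58 and rho = -0.60 (exact permutation p = 0.12 and 0.132, adjusted p = 0.603 and 0.851), with r = -0.54 without control 3 and knockout 7. Egr1 and Ier2 had r = 0.58 and rho = 0.69 (exact permutation p = 0.129 and 0.0694, adjusted p = 0.603 and 0.851), with r = 0.44 without control 1 and knockout 5. With 1 mouse left out their r ranged from 0.350 to 0.767, the highest without control 2.

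To set these relations against the transcriptome, each tested gene was fitted on genotype and the Fos level of the same library. With limma adjusted over 13140 genes, 0 of 7 other members and 0 genes (0%) had a slope on Fos that passed 0.05, with 649 genes (4.94%) at an unadjusted p under 0.05, and 0 and 631 with voom. Egr1 had a slope of -0.98 log2 units per log2 unit of Fos (SE 0.294, limma adjusted p = 0.952) and Myc a slope of 0.59 (SE 0.235, limma adjusted p = 0.952). These were the 2 of 7 members at an unadjusted p under 0.05. That number was 1 without control 1, control 2, knockout 6 or knockout 7, and the count over all genes was 1583 without control 2. The Myc slope was 0.36 without control 2, and that of Zfp36 below was -0.20 without knockout 6. The other slopes were -0.34 for Zfp36 (SE 0.184), 0.22 for Atf3 (SE 0.303), 0.22 for Junb (SE 0.178), -0.047 for Jun (SE 0.0872) and 0.027 for Ier2 (SE 0.206). That of Junb was 0.089 without knockout 5, 0.13 without control 3 and 0.52 without knockout 6, and those of Jun, Atf3 and Ier2 changed sign when 1 mouse was left out. Among all tested genes the r with Fos ranked Egr1 at the 0.586th percentile and Myc at the 97.6th. All slopes share the same 8 Fos values, so they are not separate results.

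**Figure D4:**
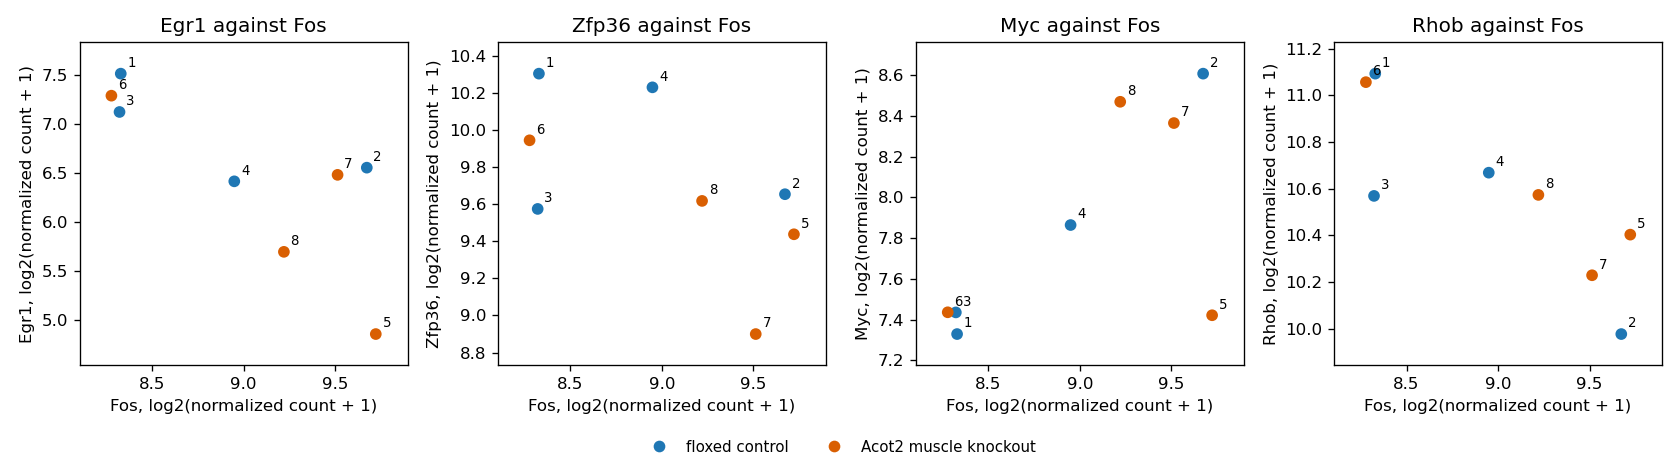
Log2 levels of Egr1, Zfp36, Myc and Rhob (vertical axes) against that of Fos (horizontal axes) in 4 floxed control mice (blue) and 4 Acot2 muscle knockout mice (orange), numbered by mouse. Egr1 and Rhob fall as Fos rises in mice of both groups, and knockout 5 lies apart in the Myc panel, with high Fos and low Myc. Rhob is the other immediate early gene with the smallest p on Fos, so its panel is a description.

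The wider class of immediate early genes showed both signs. Of 48 further genes listed, 44 were tested (Fosl1, Egr2, Egr3 and Egr4 were too low), and 0 had an adjusted p under 0.05 in either fit. In the fit on Fos, 11 of 44 (25.0%) had an unadjusted p under 0.05, 4 with a slope above 0 and 7 with a slope below 0, against 2.29% and 2.65% of all genes. The median slope was -0.034 over the 44 genes and -0.0026 over all. The split was 2 and 4 without knockout 6, and 11 genes had a slope below 0 at that level without control 3. The list was chosen as a class and its genes share 8 libraries, so the count describes these mice.

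Against Fos ran Rhob, a small GTPase, and Nfkbia, the inhibitor that holds NF-kappaB in the cytoplasm. Rhob had 2183, 1007, 1518 and 1626 normalized counts in controls 1 to 4 and 1353, 2128, 1199 and 1523 in knockouts 5 to 8, so that control 1 and knockout 6, both low in Fos, were the highest. Its slope on Fos was -0.57 (SE 0.114, limma adjusted p = 0.952), and that of Nfkbia was -0.72 (SE 0.156, limma adjusted p = 0.952). The 5 others with a slope below 0 were Ctgf, connective tissue growth factor (-0.43, SE 0.112), the stress gene Gadd45g (-0.77, SE 0.222), Ier5 (-0.90, SE 0.266), Ier3 (-0.59, SE 0.243) and the kinase gene Sgk1 (-0.75, SE 0.309). Of these, Gadd45g was at -0.35 without control 2, Ier3 at -1.02 without control 2 and -0.092 without knockout 6, and Sgk1 at -1.30 without control 2 and -0.43 without knockout 6. The 4 genes that ran with Fos were the repressor gene Bhlhe40 (0.56, SE 0.15), Dusp1, a phosphatase that shuts off MAP kinases (0.47, SE 0.135), the zinc finger gene Klf10 (0.60, SE 0.177) and the interferon factor gene Irf1 (0.44, SE 0.172). Dusp1 was at 0.72 without knockout 6. Rhob and Nfkbia were named as the 2 genes of the list with the smallest p on Fos, and Sgk1 by that rule in the glucocorticoid list. The other genes here were named after their values were seen.

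In the genotype comparison the same 44 genes had a median difference of -0.022, with 25 lower and 19 higher. Over all tested genes 49.4% were lower and the median difference was 0.0031. Ppp1r15a, a phosphatase subunit that ends translational arrest, differed by -0.22 (SE 0.0989, limma adjusted p = 0.746) and Cebpb, an inducible leucine zipper factor, by -0.31 (SE 0.152, limma adjusted p = 0.746), or -0.20 without knockout 7. Of 33 kinases and factors upstream of these genes, 0 passed an adjusted p of 0.05, 23 were lower and the median difference was -0.086. At an unadjusted limma p under 0.05, 4 of the 33 were lower and 0 higher, against 486 lower and 324 higher of 13141 genes. Their smallest p belonged to the NF-kappaB subunit gene Rela, at -0.24 (SE 0.0884), and to Elk4, a partner of serum response factor, at -0.36 (SE 0.135), both with a limma adjusted p of 0.746. Against Fos the smallest p were those of the MAP kinase kinase genes Map2k3 (slope -0.34, SE 0.0862) and Map2k1 (-0.16, SE 0.0734), with a limma adjusted p of 0.952.

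Of 14 tested partners and repressors of the members, 0 passed in either fit. The AP-1 partner gene Atf7 differed by -0.41 between genotypes (SE 0.173) and Mga, which binds the Myc partner Max, by -0.21 (SE 0.1), both with a limma adjusted p of 0.746. On Fos, Mga had a slope of 0.20 (SE 0.07) and Fbxw7, the ubiquitin ligase subunit that degrades Myc and Jun, a slope of 0.25 (SE 0.106), both with a limma adjusted p of 0.952. Among 10 heat shock genes, 16 genes of glucocorticoid response and time of day, 3 tested cytokine response genes and 9 fibre genes, 0 passed an adjusted p of 0.05 in either limma fit. Those with the smallest p against Fos were the heat shock genes Hspb1 (slope -0.21, SE 0.08) and Hspd1 (-0.20, SE 0.106), the glucocorticoid targets Fkbp5 (-0.29, SE 0.103) and Sgk1 (-0.75, SE 0.309), the adhesion gene Icam1 (0.26, SE 0.154) and the receptor gene Il6ra (-0.18, SE 0.171), and the fibre genes Pvalb (-0.25, SE 0.141) and Ckm (-0.20, SE 0.19). Single mice moved several of these slopes by over 1.5 times: Hspd1 was at -0.32 without control 2 and -0.11 without knockout 5, Fkbp5 at -0.18 without knockout 6, Ckm at -0.39 without control 2 and -0.024 without knockout 6, and Fbxw7 at 0.16 without control 1.

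Outside all lists, the genes whose log2 levels were most like Fos over the 8 mice were Rab20 (r = 0.935), Kdm2b (0.928), Fam212b (0.902), mt-Rnr1 (0.897), Cds2 (0.896), Xkr8 (0.894), Zfp78 (0.881), Apcdd1 (0.876), Limd2 (0.869) and Bmp2 (0.868). They were picked as the highest of all tested genes with settled names, so these values are a description. Rab20, a small GTPase gene, had 123, 207, 127 and 132 normalized counts in controls 1 to 4 and 183, 133, 182 and 161 in knockouts 5 to 8, which puts control 2 and knockouts 5 and 7 on top, as for Fos. mt-Rnr1 is the small ribosomal RNA of mitochondria, and it ranged from 265508 to 388269 normalized counts. The lowest r belonged to Zfp687 (-0.944), Fam214b (-0.928) and Pllp (-0.928).

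Of 96 relations between a member and a measure of the library (share of titin reads, depth, 8 summed marker lists, heat shock and fibre genes), 0 passed an adjusted p of 0.05 in the exact permutation test by r or by rho. By r, 4 had an unadjusted p under 0.05, and by rho 5 did, near the number that this threshold gives among 96 unrelated pairs. Besides the relations of Jun, Junb, Egr1, Atf3 and Zfp36 above, these were Zfp36 with fibre genes (r = 0.742 and rho = 0.476, permutation p = 0.0378 and 0.243, adjusted p = 0.865 and 0.79) and with adipocyte markers (r = -0.73 and rho = -0.762, permutation p = 0.04 and 0.0368, adjusted p = 0.865 and 0.666). The first had r = -0.021 without control 4 and knockout 7, and the second -0.687 without controls 1 and 3. The relations of Jun and Atf3 to the titin share were under an unadjusted 0.05 by neither measure. Fos itself had r = 0.032 with the titin share and r = 0.127 with macrophage markers (permutation p = 0.94 and 0.76, adjusted p = 0.97 and 0.926).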

How the data were processed

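Per the labels' protocols, RNA was purified on columns (Norgen) and sequenced from stranded TruSeq libraries. The authors used cutadapt, FastQC, STAR, HTSeq and DESeq2 with build GRCm38, per the submitters' processing notes; for versions, annotation release and strand setting the sources used here give nothing. The deposited log2 values are log2(n + 1), with n the reads of a gene over a size factor of its library, judged from the values: 100% of values up to 200 reads lay within 0.1 of a whole read. Columns were matched to libraries by mouse number.

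Genes with a mean n of at least 10 were tested with limma 3.58.1 in R 4.3.3 (trended eBayes) at a Benjamini-Hochberg adjusted p of 0.05 over all of them. The pseudocount of 1 understates fold changes of low genes. Genotype was 1 fit, and genotype plus Fos level another. Correlations of log2 values used all 40320 pairings of 8 mice. Mouse numbers in the labels differ between all 8 libraries, which were taken as 8 animals. Lengths are unions of GENCODE M21 exons.

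Members and lists were chosen with earlier results of these data known. Further named genes are the 2 with the smallest p per list and fit, and the 10 highest and 3 lowest in r with Fos outside the lists; for the kinase and partner lists and the members both fits are given, and for the last lists named the fit on Fos. Scripts were tested on simulated data. Alternatives covered pseudocount, filter, scaling, voom, robust fit, mouse number range and left-out mice.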

Additional observations from a re-analysis of the deposited data

How the results depend on the processing

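No member was called under any alternative run, in either fit. Without the filter on low values 1 gene, Acot2, was called between genotypes (limma adjusted p = 0.00421, range 0.00421 to 0.758 over its alternatives). For the relation to Fos, leaving out 1 mouse gave between 0 and 2 called genes. The median r of member pairs lay between -0.0814 and 0.0777 with 1 mouse left out, and was 0.0506 without control 4 and knockout 5. Of 136 genotype differences of members under alternatives, 5 changed sign: with 1 mouse left out Ier2 ranged from -0.23 to 0.023 and Myc from -0.068 to 0.38. Of 126 slopes of members on Fos, 8 changed sign: with 1 mouse left out Jun ranged from -0.13 to 0.018, Atf3 from -0.36 to 0.45 and Ier2 from -0.31 to 0.31, and Ier2 was -0.020 when the range of mouse numbers was a covariate and -0.010 without the genotype term. With 1 mouse left out, 7 of 8 genotype differences of members and 6 of 7 slopes moved by over 1.5 times, as did 6 of 14 differences and 9 of 22 slopes of the other named genes, of which the slope of Il6ra (-0.36 to 0.047) changed sign. The cause was not tested. The alternatives for the spread, for single pairs and for likeness to Fos were chosen after seeing the data. Intervals and p-values rest on 4 mice per group, and the depth of Egr1, 31 to 170 reads, limits its precision. No paired analysis was possible because replicate numbers run over the series and the groups share none.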

Other observations

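The 44 other immediate early genes also varied widely between mice. In 21 of them (47.7%) the SD within genotype, relative to the limma trend, was above the 95th percentile of all tested genes, where 5.01% lie by construction, and the median ratio of the list was 2.20. Such spread was not particular to immediate early genes. It was found in 7 of 16 genes of glucocorticoid response and time of day (median ratio 1.90), which share Sgk1 and Per1 with this list. It was also found in 2 of 3 tested cytokine response genes (2.56), which share Socs3, and in 3 of 9 fibre genes (0.66). It was found in 0 of 33 upstream kinases and factors, 0 of 14 partners and repressors and 0 of 10 heat shock genes. Sgk1, the serum- and glucocorticoid-regulated kinase gene, had 10927, 7184, 5698 and 4819 normalized counts in controls 1 to 4 and 4083, 14590.1, 3893 and 10971 in knockouts 5 to 8. Ier5 had 1538, 918, 1089.5 and 1332 in the controls and 619, 2665, 695 and 1922 in the knockouts. These 2 genes had the largest ratios of the 44 (5.75 and 5.44), and both were highest in knockout 6. Knockout 6 held the highest value in 10 of the 44 genes, control 2 in 9, control 1 in 8 and knockout 5 in 7. By contrast Mcl1, Gadd45b and Mafk, named after their values were seen, ranged only 1.22-fold, 1.23-fold and 1.21-fold between mice.

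None of the 18 groups of 4 values examined, 2 for each tested member and for Acot2, held a mouse far enough from the rest to stand apart by Dixon's criterion.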
